A study of Drosophila melanogaster with 9 samples.

Results

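Glutathione S-transferases were followed in whole 3rd instar larvae through every probe set whose single annotated gene symbol starts with Gst. On the Affymetrix *Drosophila* Genome 2.0 array, where a probe set is a group of short probes that reads 1 or more transcripts, 36 of the 18769 non-control probe sets met this rule. They stand for 34 of the 11981 genes that a probe set names by a single symbol, 11 of class D (Delta), 13 of class E (Epsilon), 3 of class O (Omega), 1 of class S (Sigma), 4 of class T (Theta) and 2 of class Z (Zeta). *GstO2* and *GstE9* have 2 probe sets each, and the one with the highest mean over the 9 arrays was used for each gene. RefSeq lists 35 genes with such a symbol, and *GstE8* was not analysed here. All larvae were of the *y w* strain, which carries mutations in the body colour gene *yellow* and the eye colour gene *white*. The 3 groups of 3 arrays were larvae pinched with forceps and taken at 4 h, larvae pricked with a clean tungsten needle (clean injury) and taken at 4 h, and larvae without treatment, for which the labels give no time. Arrays of larvae handled and kept for 4 h uninjured were not analysed here, so the injury cannot be told apart from the handling, the time and the move to other medium. How many larvae went into an array is not stated for these samples. RNA came from whole animals, in which fewer cells of a type and less RNA per cell cannot be told apart.

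Glutathione S-transferases join the tripeptide glutathione to electrophilic molecules, which makes toxins and products of lipid oxidation more soluble and easier to export. The Delta and Epsilon classes are expanded in insects and are best known for the breakdown of insecticides and plant toxins, whereas Omega, Sigma, Theta and Zeta enzymes are shared with other animals. Many Delta and Epsilon genes are induced through the transcription factor CncC, the fly counterpart of the mammalian Nrf2 protein, when larvae meet oxidants or xenobiotics.

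The deposited log2 signals spanned 1.6 to 14.4, the medians of the arrays lay between 4.94 and 5.08, and arrays of a group correlated at 0.988 to 0.995 over all probe sets. Of the 34 genes, 32 lay above the dimmest 40% of probe sets, a level of 4.14, and *GstD11* and *GstE4* lay below it. A level is given on the log2 signal scale and is compared only within a probe set, because probes differ in how strongly they bind. The probe set of *GstS1* is of a type whose probes can match more than 1 gene. All 3 arrays of each group are labelled biological replicates. The p-values, from limma with a mean per group unless another fit is named, measure only the spread between arrays within groups. This spread was pooled over the arrays fitted and drawn towards that of all probe sets.

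The *Gst* genes spread more within groups than most of the array did. Their median standard deviation within a group was 0.30 log2 units, against 0.17 over all probe sets, with 0.54 for class D, 0.32 for class E, 0.28 for class Z, 0.21 for *GstS1*, 0.20 for class O and 0.17 for class T. The genes moved together from array to array. Pinching replicate 1 was the lowest of its group for 30 of 34 genes, against 44.6% of all probe sets, and pinching replicate 3 was the highest for 24, against 31.6%. Clean injury replicate 1 was the lowest for 19 genes (38% of all probe sets) and clean injury replicate 3 the highest for 22 (40.2%). Among the untreated arrays, replicate 3 was the highest for 28 genes (30.8% of all probe sets) and replicate 2 the lowest for 24 (31.8%). Among the 11 class D genes, untreated replicate 2 was the lowest for all 11 and untreated replicate 3 the highest for 10, pinching replicate 1 was the lowest for 9 and pinching replicate 3 the highest for 8, and clean injury replicate 1 was the lowest for 9 and clean injury replicate 3 the highest for 7. The mean deviation of the 11 genes from their group means was -0.53, 0.08 and 0.45 on pinching replicates 1, 2 and 3, -0.36, 0.07 and 0.28 on clean injury replicates 1, 2 and 3, and -0.03, -0.57 and 0.61 on untreated replicates 1, 2 and 3. Over all probe sets no array deviated by more than 0.04 on average. Arrays that carry the same replicate number deviated together over all probe sets (r from 0.189 to 0.548 in 9 pairs). A fit that takes the number as a block, called the blocked fit here, is therefore given beside the plain fit where it changes a call. Its p-values measure the spread left after the shared effect of the replicate number is taken out. The standard errors printed are those of the plain fit.

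**Figure D1:**
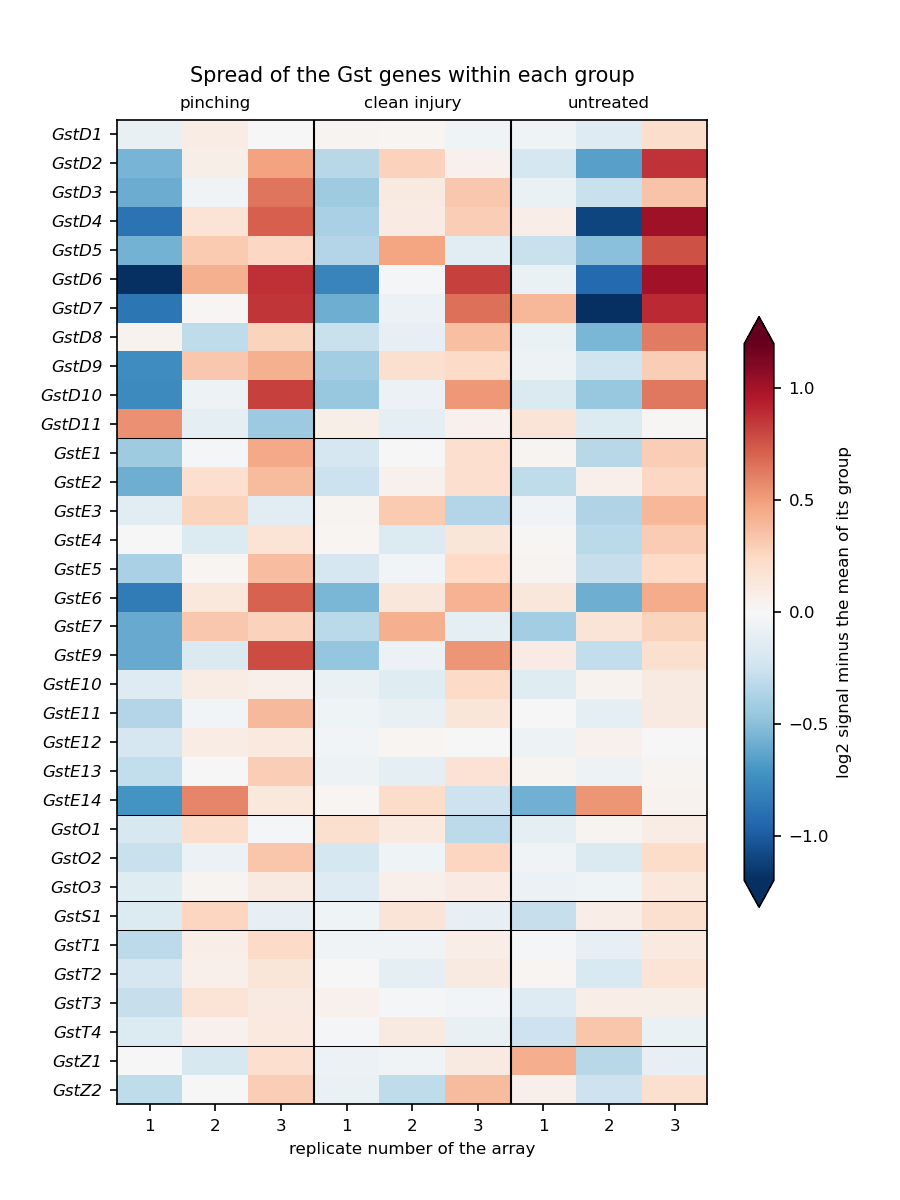
Heat map of the log2 signal of 34 *Gst* genes (rows, by class) on 9 arrays (columns, by group and replicate number), shown as the difference from the mean of the gene's own group. Blue cells are below and red cells above that mean. Pinching replicate 1 holds its group's lowest value for 30 genes, and untreated replicate 3 holds its group's highest value for 28.

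Pinching and clean injury gave the same calls among the *Gst* genes. *GstT4*, of the Theta class, was higher by 1.43 log2 units after pinching and by 1.46 after clean injury. The Delta genes *GstD1* and *GstD7* and the Epsilon genes *GstE5*, *GstE9* and *GstE13* were lower after either treatment, by 1.34-fold to 5.75-fold. The other 28 genes did not pass the test, which was limma with Benjamini-Hochberg adjustment over all 18769 probe sets and a threshold of 0.05. After pinching, 1 of 34 genes (2.94%) was higher where 4.21% of all probe sets were, and 5 (14.7%) were lower where 4.99% were. After clean injury, 1 (2.94%) was higher where 5.22% of all probe sets were, and 5 (14.7%) were lower where 4.93% were. The 2 comparisons share the untreated arrays, so their calls are not independent of each other.

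Most of the measured changes were negative without passing the test. Pinching gave 27 negative and 7 positive log2 changes with a median of -0.29, against a median of -0.02 and 54.4% negative over all probe sets. Leaving out 1 array gave *Gst* medians of -0.41 to -0.17, with -0.17 without pinching replicate 1 and -0.18 without untreated replicate 3. Clean injury gave 23 negative and 11 positive changes with a median of -0.18, against a median of -0.04 and 55.5% negative over all probe sets. Here leaving out 1 array gave *Gst* medians of -0.29 to -0.15, with -0.29 without untreated replicate 2 and -0.28 without clean injury replicate 3. In the classes with most genes, the median log2 change after pinching was -0.49 for class D and -0.36 for class E. For class E it was -0.41 to -0.21 when 1 array was left out, with -0.21 without untreated replicate 3. After clean injury the median was -0.20 for class D and -0.35 for class E. Each pinching array was below the untreated array of the same number for 19 of 34 genes (26.2% of all probe sets), and each clean injury array for 17 (29.2% of all probe sets). The range of the 3 pinching arrays lay wholly below that of the untreated arrays for 8 genes (14.9% of all probe sets) and wholly above for 2 (12.7%). The range of the clean injury arrays lay wholly below for 9 genes (19.1%) and wholly above for 2 (15.4%).

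At an unadjusted p under 0.05 in limma, 13 genes differed in each comparison, where 4405 of the 18769 probe sets did after pinching and 4690 after clean injury. The blocked fit called 12 genes lower after pinching (35.3%, against 8.76% of all probe sets) and 2 higher (7.6% of all probe sets), and 9 lower after clean injury (26.5%, against 8.58%) and 1 higher (10.1%). Of the genes lower in the blocked fit, 8 were lower after both treatments, the 5 named above and *GstD10*, *GstE4* and *GstO2*.

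**Figure D2:**
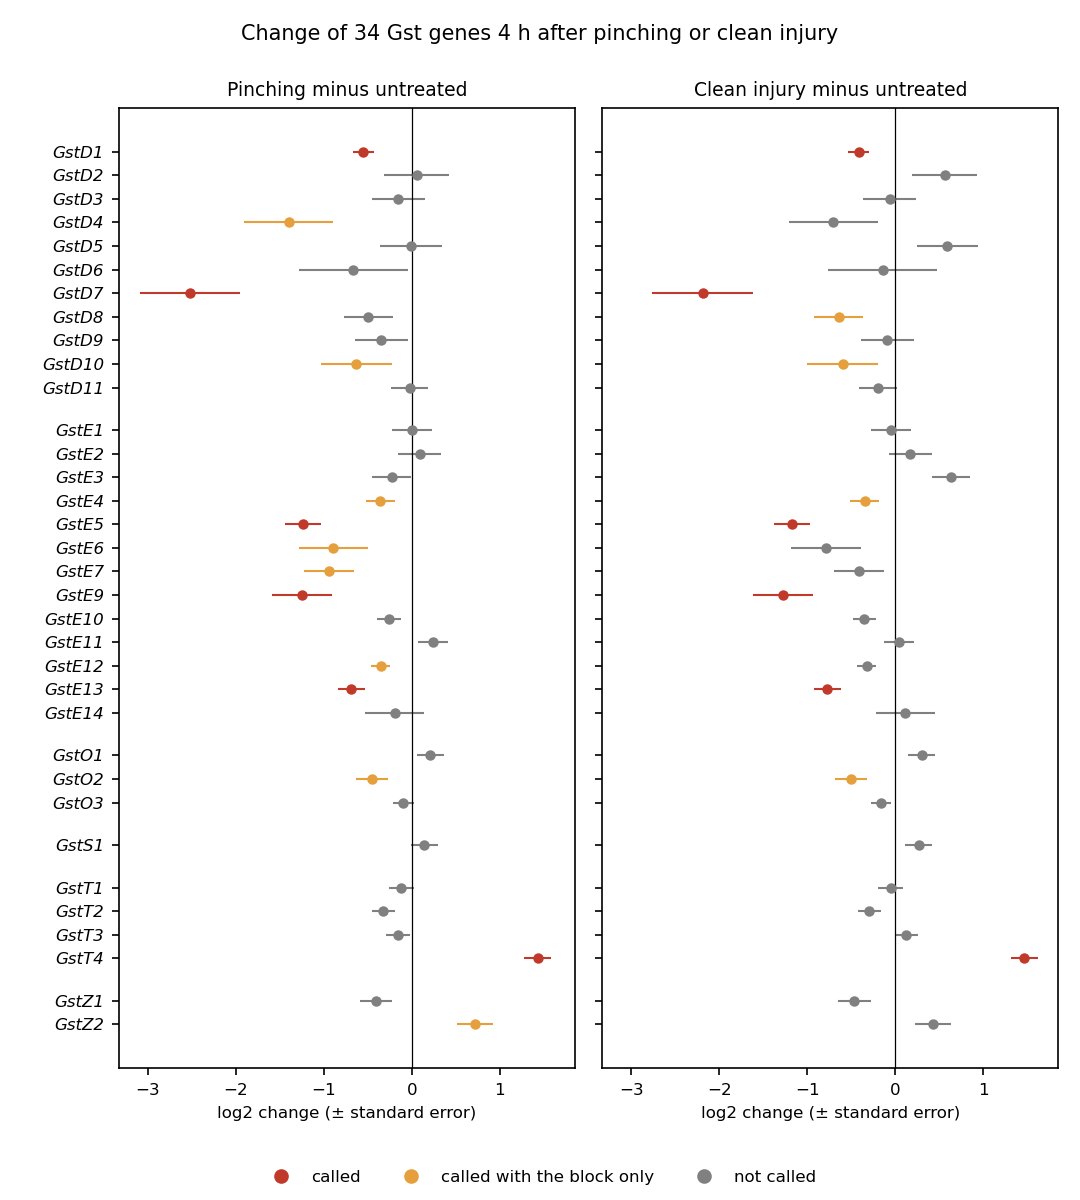
Log2 change of each of 34 *Gst* genes 4 h after pinching (left) and 4 h after clean injury (right), each minus untreated, with bars of 1 standard error from limma. Red points passed an adjusted p of 0.05 and orange points passed it only with the replicate number as a block. *GstT4* stands alone to the right at 1.43 and 1.46, and *GstD7* lies farthest to the left at -2.52 and -2.19.

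*GstT4* encodes a Theta-class enzyme, a class with members in mammals that act on small halogenated substrates. Its log2 signal was 10.87, 11.09 and 11.16 on the pinching arrays, 11.06, 11.18 and 10.98 on the clean injury arrays, and 9.36, 9.94 and 9.53 on the untreated arrays. Every injured array lay above every untreated one. The gene was 2.69-fold higher after pinching (log2 change 1.43 ± 0.15, standard error, limma adjusted p = 0.000509) and 2.76-fold higher after clean injury (1.46 ± 0.15, limma adjusted p = 0.000425). Both calls were kept in all 9 fits that each left out 1 array, with log2 changes of 1.30 to 1.60 after pinching and 1.34 to 1.63 after clean injury. *GstT1* and *GstT2*, which are neighbours in the RefSeq gene order, had log2 changes of -0.12 and -0.33 after pinching and of -0.05 and -0.29 after clean injury. *GstT3*, which like *GstT4* stands apart from every other *Gst* gene, had -0.16 after pinching and 0.12 after clean injury. None of these 3 genes passed in either comparison.

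Class E held 3 of the 5 genes that fell. *GstE5* had log2 signals of 7.08, 7.49 and 7.84 after pinching and 7.32, 7.49 and 7.76 after clean injury, against 8.73, 8.43 and 8.95 in untreated larvae. The 6 injured arrays all lay below the 3 untreated ones. The gene was 2.35-fold lower after pinching (log2 change -1.23 ± 0.20, standard error, limma adjusted p = 0.00491) and 2.27-fold lower after clean injury (-1.18 ± 0.20, limma adjusted p = 0.00573), and both calls were kept in all 9 fits that left out 1 array.

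*GstE9* had log2 signals of 8.84, 9.27 and 10.23 after pinching and 8.96, 9.35 and 9.95 after clean injury, against 10.79, 10.40 and 10.89 in untreated larvae. The groups did not overlap, and the highest injured arrays, both with replicate number 3, came closest to untreated replicate 2. The log2 change was -1.25 ± 0.34 after pinching (limma adjusted p = 0.0462) and -1.28 ± 0.34 after clean injury (limma adjusted p = 0.0391), and the blocked fit gave 0.00234 and 0.00185. Both calls of the plain fit changed when single arrays were left out. The pinching call was lost without untreated replicates 1, 2 or 3 (limma adjusted p = 0.139, 0.0549 and 0.157), clean injury replicate 2 (0.073) or pinching replicates 1 or 2 (0.113 and 0.147). The clean injury call was lost without untreated replicates 1 or 3 (limma adjusted p = 0.126 and 0.135), clean injury replicates 1 or 2 (0.144 and 0.136) or pinching replicate 2 (0.056). The pinching call was also lost in a fit of the 6 arrays compared (limma adjusted p = 0.0597). A dim second probe set of the gene, with means of 3.59 after pinching, 3.61 after clean injury and 3.96 in untreated larvae, had a log2 change of -0.37 after pinching and of -0.35 after clean injury and did not pass, and the mean of both probe sets gave -0.81 in each comparison (limma adjusted p = 0.0347 and 0.0325).

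*GstE13* had log2 signals of 7.54, 7.84 and 8.13 after pinching and 7.69, 7.64 and 7.93 after clean injury, against 8.55, 8.46 and 8.56 in untreated larvae. The untreated arrays lay close together and above every injured array. The log2 change was -0.69 ± 0.15 after pinching (limma adjusted p = 0.0185) and -0.77 ± 0.15 after clean injury (limma adjusted p = 0.0106). The pinching call was lost without untreated replicate 1 (limma adjusted p = 0.0691), untreated replicate 3 (0.0761) or pinching replicate 2 (0.0602), and the clean injury call without clean injury replicate 2 (0.0581).

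**Figure D3:**
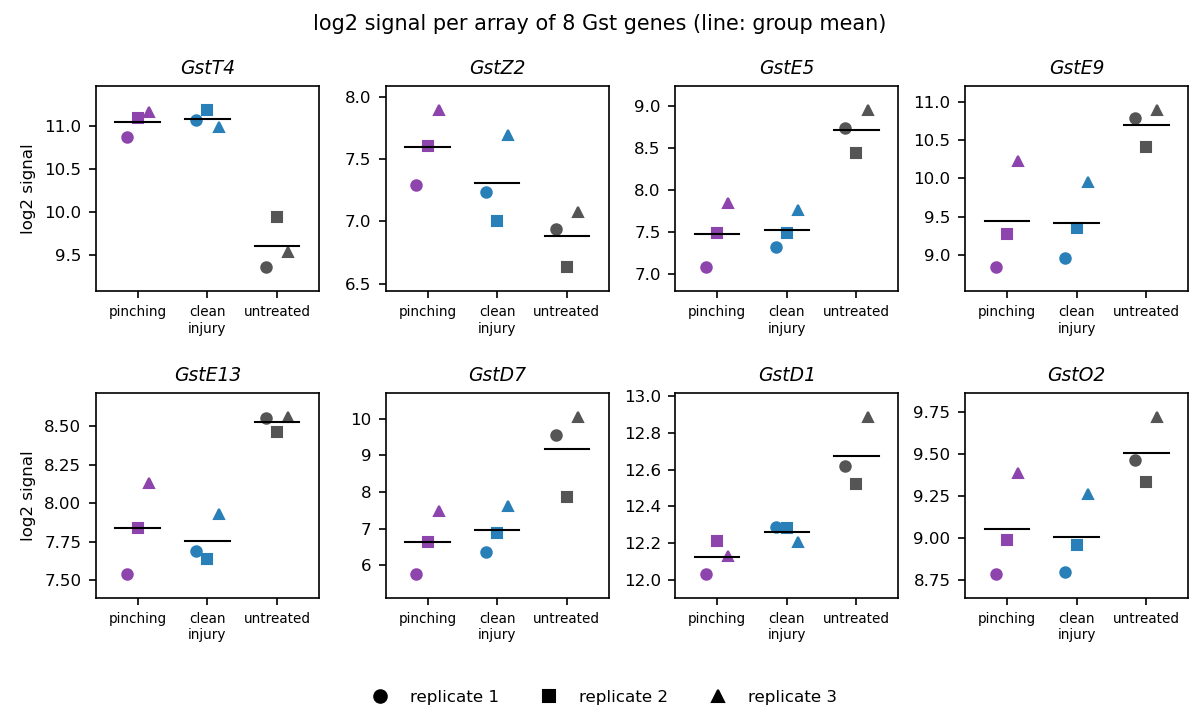
Log2 signal on each of the 9 arrays for 8 *Gst* genes, with pinching, clean injury and untreated from left to right, a symbol for each replicate number and a line at the group mean. Each panel has its own vertical scale, which does not start at 0. *GstT4* has its injured arrays from 10.87 to 11.18 and its untreated arrays from 9.36 to 9.94, and *GstE5* has injured arrays from 7.08 to 7.84 and untreated arrays from 8.43 to 8.95.

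Most Epsilon genes sit in 1 run of 10 neighbours, in the order *GstE10*, *GstE1* to *GstE9*, of which 9 were measured. The ends of the run differed in their values. The 5 measured genes from *GstE4* to *GstE9* all had negative changes, from -1.25 to -0.36 after pinching (median -0.94) and from -1.28 to -0.35 after clean injury (median -0.79). Of these, 2 were called in each comparison, and the blocked fit called 5 after pinching and 3 after clean injury. The 4 genes from *GstE10* to *GstE3* had changes of -0.26 to 0.09 after pinching and -0.35 to 0.63 after clean injury, and none was called in either fit. The difference between the ends was seen in these values and was not tested.

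Inside the run, *GstE7* had log2 signals of 4.04, 4.97 and 4.92 after pinching, 4.86, 5.61 and 5.07 after clean injury, and 5.17, 5.74 and 5.86 in untreated larvae. The pinching arrays lay below the untreated ones and the clean injury arrays overlapped them. Its log2 change was -0.94 ± 0.28 after pinching (limma adjusted p = 0.0685, 0.00171 in the blocked fit) and -0.41 ± 0.28 after clean injury (limma adjusted p = 0.397, 0.0781 in the blocked fit). *GstE6* had pinching arrays at 6.40, 7.36 and 7.94 and clean injury arrays at 6.78, 7.47 and 7.75, against untreated arrays at 8.26, 7.54 and 8.57. Its untreated replicate 2 lay below the highest injured arrays, so the groups overlapped. The log2 change was -0.89 ± 0.39 after pinching (limma adjusted p = 0.205, 0.0425 in the blocked fit) and -0.79 ± 0.39 after clean injury (limma adjusted p = 0.246, 0.0624 in the blocked fit). Without pinching replicate 1 the change of *GstE6* after pinching was -0.47 (limma adjusted p = 0.393). *GstE4*, near the lower end of the scale, had -0.36 ± 0.17 after pinching and -0.35 ± 0.17 after clean injury, and passed only in the blocked fit (limma adjusted p = 0.0435 and 0.0459). Without untreated replicate 3 these changes were -0.21 after pinching and -0.19 after clean injury.

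Outside the run, *GstE12* had a log2 change of -0.36 ± 0.11 after pinching and of -0.33 ± 0.11 after clean injury, with no overlap between injured and untreated arrays (limma adjusted p = 0.0775 and 0.0952). In the blocked fit its adjusted p from limma was 0.0423 after pinching and 0.054 after clean injury. *GstE11* had 0.24 after pinching and 0.05 after clean injury. *GstE14*, which is known as *noppera-bo* and is needed in the prothoracic gland to make the moulting hormone ecdysone, had -0.19 ± 0.34 after pinching and 0.11 ± 0.34 after clean injury. None of the 9 measured genes of ecdysteroid synthesis passed either (*spok* was higher after clean injury in the blocked fit), with median log2 changes of 0.17 after pinching and 0.08 after clean injury.

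**Figure D4:**
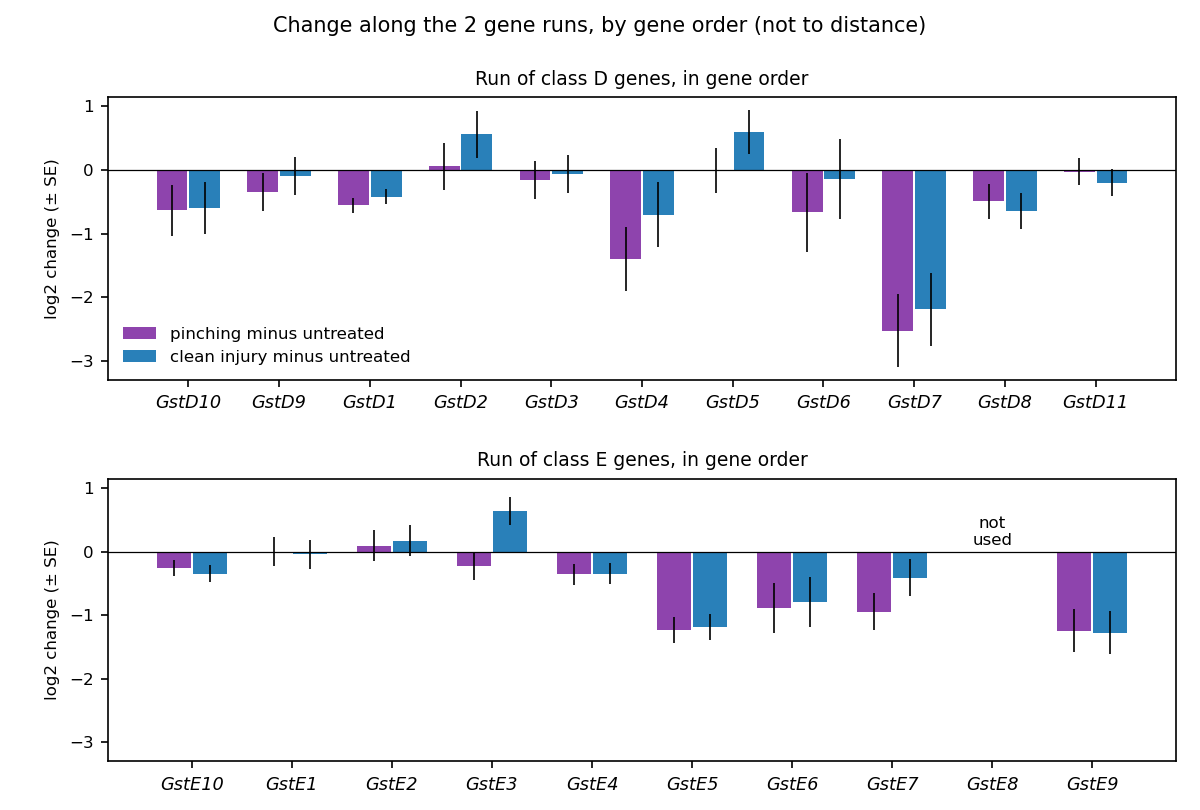
Log2 change of the *Gst* genes in the Delta run (top) and the Epsilon run (bottom), drawn in gene order and not to distance, for pinching minus untreated and clean injury minus untreated, with bars of 1 standard error from limma. In the Epsilon run the measured genes from *GstE4* to *GstE9* all lie below 0 in both comparisons. In the Delta run *GstD7* has the longest bars, at -2.52 and -2.19, and its neighbours *GstD6* and *GstD8* have -0.66 and -0.49 after pinching.

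The 11 Delta genes form a single run of their own, from *GstD10*, *GstD9* and *GstD1* through *GstD2* to *GstD8*, with *GstD11* after 1 gene of another name. Their changes were negative for 10 of 11 genes after pinching and for 9 after clean injury, and 2 were called lower in each comparison. The class median of -0.49 after pinching was -0.25 without pinching replicate 1 and -0.18 without untreated replicate 3, and the median of -0.20 after clean injury was -0.50 without untreated replicate 2.

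*GstD7* had the largest change of the family in both comparisons. Its log2 signal was 5.77, 6.65 and 7.49 after pinching and 6.38, 6.90 and 7.63 after clean injury, against 9.56, 7.87 and 10.05 in untreated larvae. The groups did not overlap, and untreated replicate 2 stood nearest to the injured arrays. The gene was 5.75-fold lower after pinching (log2 change -2.52 ± 0.57, standard error, limma adjusted p = 0.0213) and 4.57-fold lower after clean injury (-2.19 ± 0.57, limma adjusted p = 0.0366). Pairs of arrays that share a number differed by -3.80, -1.22 and -2.56 log2 units for pinching and by -3.18, -0.97 and -2.42 for clean injury, and the blocked fit gave a limma adjusted p of 0.00151 and 0.00288. Leaving out 1 array gave log2 changes of -3.17 to -2.08 after pinching and -2.84 to -1.75 after clean injury, in each case lowest without untreated replicate 2 and highest without untreated replicate 3. The pinching call was lost when untreated replicate 1 (limma adjusted p = 0.0897), untreated replicate 3 (0.0925), pinching replicate 1 (0.0642) or pinching replicate 2 (0.0696) was left out. The clean injury call was lost without untreated replicates 1 or 3 (limma adjusted p = 0.134 and 0.14), clean injury replicates 1 or 2 (0.134 and 0.125) or pinching replicate 2 (0.0559).

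*GstD1*, a widely used readout of CncC activity whose enzyme can break down DDT, changed less and with a smaller spread. Its log2 signal was 12.03, 12.21 and 12.13 after pinching and 12.29, 12.28 and 12.21 after clean injury, against 12.62, 12.52 and 12.89 in untreated larvae. All injured arrays lay below all untreated ones. It was 1.47-fold lower after pinching (log2 change -0.55 ± 0.12, standard error, limma adjusted p = 0.0162), a call lost only without untreated replicate 3 (-0.45, limma adjusted p = 0.069). After clean injury it was 1.34-fold lower (-0.42 ± 0.12), with a limma adjusted p of 0.05 after rounding, just under the threshold. Among the fits that left out 1 array, this call held only without untreated replicate 2 (limma adjusted p = 0.035) and without pinching replicate 1 (0.0408). In the other fits the limma adjusted p was 0.103 and 0.174 (without untreated replicates 1 and 3), 0.12, 0.151 and 0.106 (without clean injury replicates 1, 2 and 3), and 0.0607 and 0.0703 (without pinching replicates 2 and 3).

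The other 9 Delta genes did not pass in the plain fit. *GstD4* had log2 signals of 4.47, 5.52 and 6.08 after pinching, 5.66, 6.15 and 6.35 after clean injury, and 6.84, 5.66 and 7.78 in untreated larvae, with overlap in both comparisons. Its log2 change was -1.40 ± 0.51 after pinching (limma adjusted p = 0.126, 0.0231 in the blocked fit) and -0.70 ± 0.51 after clean injury (limma adjusted p = 0.414). The change after pinching was -0.89 without untreated replicate 3, and -1.95 without untreated replicate 2, where it passed (limma adjusted p = 0.0247). *GstD10*, the first of the run, had -0.63 after pinching and -0.60 after clean injury and passed only in the blocked fit (limma adjusted p = 0.0334 and 0.0391). Its change after pinching was -0.25 without pinching replicate 1, -0.32 without untreated replicate 3 and -1.05 without pinching replicate 3, and its change after clean injury was -0.28 without untreated replicate 3 and -0.37 without clean injury replicate 1. *GstD8* had -0.49 after pinching and -0.64 after clean injury, and its change after clean injury passed in the blocked fit (limma adjusted p = 0.0154) and was -0.33 without untreated replicate 3. After pinching, 6 of the 11 Delta genes differed in sign between pairs of arrays, as did 9272 of the 18769 probe sets. Of these 6, *GstD2*, *GstD5*, *GstD6* and *GstD9* were lower on the pinching array in pairs 1 and 3. They were higher in pair 2, by 0.79, 0.81, 0.70 and 0.21 log2 units, the pair that holds the lowest untreated array. *GstD3* and *GstD11* were mixed in other ways. *GstD2* and *GstD5* had the only positive Delta changes after clean injury, 0.56 and 0.59, neither of which passed (limma adjusted p = 0.371 and 0.32), and had 0.06 and -0.01 after pinching. *GstD3*, *GstD9* and *GstD11* had changes between -0.35 and -0.02 after pinching and between -0.20 and -0.06 after clean injury.

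Among the Omega genes, whose enzymes act on mixed disulphides of glutathione, *GstO2* had the change nearest to the threshold. Its log2 signal was 8.79, 8.99 and 9.39 after pinching and 8.80, 8.96 and 9.26 after clean injury, against 9.47, 9.33 and 9.72 in untreated larvae. Pinching replicate 3 lay above untreated replicate 2, and the clean injury arrays lay below all untreated ones. The log2 change of -0.45 ± 0.18 after pinching and of -0.50 ± 0.18 after clean injury did not pass (limma adjusted p = 0.159 and 0.113), and passed in the blocked fit (0.0182 and 0.00996). A second, dimmer probe set of *GstO2* had log2 signals of 6.87, 7.14 and 7.39 after pinching, 6.90, 6.96 and 7.31 after clean injury, and 7.92, 7.61 and 7.90 in untreated larvae. Here the injured and untreated arrays did not overlap, and the plain fit called a change of -0.67 after pinching and of -0.75 after clean injury (limma adjusted p = 0.0286 and 0.017). Each of these calls was lost without untreated replicates 1 or 3, the pinching call also without pinching replicates 1 or 2, and the clean injury call also without clean injury replicates 1 or 2. *GstO1* had 0.21 after pinching and 0.30 after clean injury, and *GstO3* had -0.10 and -0.16 in these comparisons, none of which passed. The fourth fly Omega gene, *se*, which makes an eye pigment precursor and is named outside the *Gst* symbols, had -0.04 after pinching and -0.11 after clean injury.

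The 2 Zeta genes are neighbours, and a Zeta enzyme isomerises maleylacetoacetate in the breakdown of tyrosine. Their changes had opposite signs. *GstZ2* had log2 signals of 7.29, 7.60 and 7.89 after pinching, 7.23, 7.00 and 7.69 after clean injury, and 6.94, 6.63 and 7.07 in untreated larvae. The pinching arrays lay above the untreated ones, and clean injury replicate 2 lay among them. The log2 change was 0.71 ± 0.21 after pinching (limma adjusted p = 0.057, 0.00548 in the blocked fit) and 0.43 ± 0.21 after clean injury (limma adjusted p = 0.227, 0.0529 in the blocked fit). *GstZ1* had log2 signals of 6.57, 6.38 and 6.78 after pinching, 6.45, 6.48 and 6.63 after clean injury, and 7.42, 6.65 and 6.88 in untreated larvae. Its pinching arrays overlapped the untreated ones and its clean injury arrays lay just below them, with log2 changes of -0.41 after pinching and -0.47 after clean injury that passed in neither fit. *GstS1*, the Sigma gene, whose enzyme handles the lipid peroxidation product 4-hydroxynonenal, had 0.14 ± 0.16 after pinching and 0.27 ± 0.16 after clean injury.

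No *Gst* gene was called between pinching and clean injury, at 4 h in both. Over all 18769 probe sets limma called 0 higher and 1 lower (0.00533%), and in the blocked fit 0 higher and 8 lower (0.0426%). At an unadjusted p under 0.05, 1 of the 34 genes differed, as did 312 probe sets. This gene was *GstE3*, an Epsilon gene, with log2 signals of 9.64, 10.04 and 9.65 after pinching and 10.68, 10.96 and 10.29 after clean injury, beside 9.97, 9.64 and 10.41 in untreated larvae. Its pinching arrays all lay below its clean injury arrays, as was so for 2 of the 34 genes and 2.83% of all probe sets, while 0 genes and 2.36% of all probe sets lay wholly above. Both groups overlapped the untreated one. The log2 difference was -0.86 with a 95% interval of -1.35 to -0.38 (unadjusted p = 0.00269, adjusted p = 1 after rounding, both from limma), and the 3 pairs gave -1.04, -0.92 and -0.64. The limma adjusted p was 0.719 in the blocked fit and no lower than 0.716 when any single array was left out.

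For all the other *Gst* genes the 95% interval of the difference included 0. It lay within 1 log2 unit of 0 for 26 of the 34 genes. Its half-width ran from 0.25 to 1.38, so a difference of 2-fold was not excluded for the genes with the widest intervals. These intervals are not adjusted for the number of probe sets and do not show what the adjusted test could detect. For *GstT4* the difference was -0.04 (95% interval -0.38 to 0.31), for *GstE5* -0.05 (-0.51 to 0.40), for *GstD1* -0.14 (-0.40 to 0.12) and for *GstD7* -0.33 (-1.60 to 0.94). In class D, 9 of 11 differences were negative, and 7 genes were lower on the pinching array in all 3 pairs (63.6%, against 13.5% of all probe sets). Without pinching replicate 1, its group's lowest array for most of the family, 15 of the 34 genes changed the sign of their difference.

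**Figure D5:**
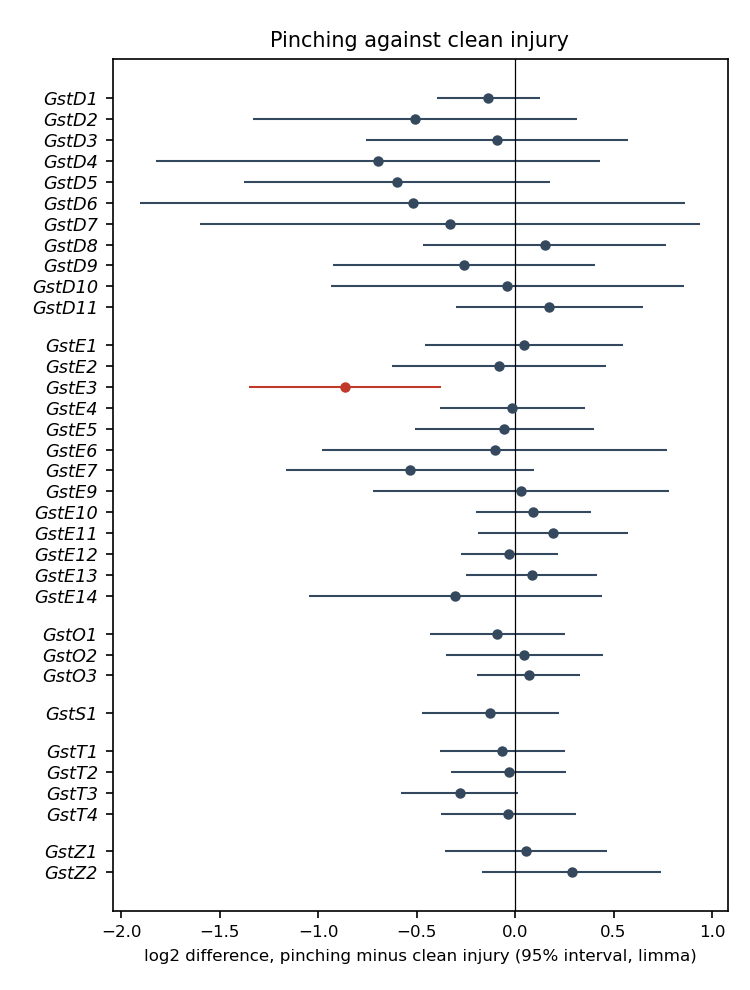
Log2 difference between pinching and clean injury for 34 *Gst* genes, with the 95% interval from limma as a horizontal line. The interval of *GstE3*, in red, runs from -1.35 to -0.38 and is the only one that leaves out 0. The interval of *GstD6*, from -1.90 to 0.86, is the widest.

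Genes that work beside the transferases were read against the shares of all probe sets given above, 4.21% higher and 4.99% lower after pinching and 5.22% higher and 4.93% lower after clean injury, and in the blocked fit 7.6% higher and 8.76% lower after pinching and 10.1% higher and 8.58% lower after clean injury. Of 6 measured genes with a transferase fold or activity but another name, 2 were lower after either treatment. *Mgstl*, a microsomal transferase, had a log2 change of -0.63 after pinching and of -0.56 after clean injury (limma adjusted p = 0.0157 and 0.025), and *Gdap1*, a mitochondrial protein of this fold, had -0.44 after pinching and -0.42 after clean injury (0.0214 and 0.0251). For each of these genes the call was kept in 6 of 9 fits that left out 1 array after pinching and in 5 of 9 after clean injury. The blocked fit also called *gfzf* lower, with -0.42 after pinching and -0.40 after clean injury (limma adjusted p = 0.0421 and 0.0461). Of 4 measured genes of glutathione synthesis, turnover and conjugate export, *Ggt-1*, which splits glutathione outside the cell, was higher by 0.63 after pinching and by 0.73 after clean injury. In the fits that left out 1 array the *Ggt-1* call was kept in 3 of 9 after pinching and in 5 of 9 after clean injury. *MRP*, an exporter of conjugates, was lower after pinching in the blocked fit, at -0.56 (limma adjusted p = 0.00818). *Gclc*, the catalytic subunit of the rate-limiting step of glutathione synthesis, had -0.34 after pinching and -0.58 after clean injury and did not pass (limma adjusted p = 0.237 and 0.0517), and its change after clean injury passed in the blocked fit (0.0212).

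Of 19 listed thioredoxin, glutaredoxin, peroxiredoxin, superoxide and other peroxide enzymes, 14 were measured, and *Sod1* was among those that were not. Of the 14, 1 was higher and 2 were lower after pinching, and 1 was higher and 3 were lower after clean injury. *Prx3*, a mitochondrial peroxiredoxin, was 1.90-fold lower after pinching and 1.89-fold lower after clean injury, and *Trx2*, a thioredoxin, had a log2 change of -0.55 in both and was called lower. *Sod3*, the extracellular superoxide dismutase, was higher by 0.55 after pinching and by 0.51 after clean injury. *Sod2*, the mitochondrial one, passed after clean injury, at -0.62, and had -0.49 after pinching (limma adjusted p = 0.0661). The *Sod3* call was kept in 7 of 9 fits that left out 1 array after pinching and in 5 of 9 after clean injury. The *Sod2* call after clean injury was kept in 5 of 9. The blocked fit called 5 of the 14 lower after pinching, *Sod2* and the peroxiredoxins *Prx6a* and *Prx6c* among them, and 3 after clean injury.

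Of 9 measured regulators, those that passed were higher. *maf-S*, the small Maf partner of CncC, was higher by 0.62 after pinching and by 0.65 after clean injury (limma adjusted p = 0.0101 and 0.00807). *cnc*, which encodes CncC among other isoforms, had 0.50 after pinching (limma adjusted p = 0.0532, 0.0253 in the blocked fit) and was higher after clean injury, by 0.64 (limma adjusted p = 0.0181). The *cnc* call was kept in 5 of 9 fits that left out 1 array. *Keap1*, the inhibitor of CncC, had -0.15 after pinching and 0.02 after clean injury. The blocked fit called 3 regulators higher after pinching and 4 after clean injury, and none lower. These included *EcR*, the ecdysone receptor, in both comparisons (0.64 after pinching and 0.80 after clean injury) and *Hr96*, a nuclear receptor of xenobiotic responses, after clean injury (0.63).

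Around the Zeta step, 2 of 4 measured enzymes of tyrosine breakdown were higher. *hgo*, the dioxygenase that makes maleylacetoacetate, had log2 signals of 7.61, 8.28 and 8.46 after pinching and 7.81, 7.95 and 8.53 after clean injury, against 5.83, 4.76 and 6.74 in untreated larvae. All injured arrays lay above the untreated ones, and the log2 change was 2.34 after pinching and 2.32 after clean injury (limma adjusted p = 0.00737 and 0.00761). *Tat*, the tyrosine aminotransferase at the start of the pathway, was higher by 0.93 after pinching and by 0.76 after clean injury. *Hpd* had 1.90 ± 0.81 after pinching and 2.13 ± 0.81 after clean injury and did not pass in the plain fit, with untreated replicate 2 at 3.89 and untreated replicate 3 at 7.84, and its change after clean injury passed in the blocked fit (limma adjusted p = 0.0463). *Faa* had 0.44 after pinching and 0.15 after clean injury. Of 7 measured genes of pteridine pigment synthesis, the pathway in which the Omega enzyme encoded by *se* acts, *Sptr*, a sepiapterin reductase, was called lower after both treatments, with -0.67 after pinching and -0.54 after clean injury, a call kept in 8 of 9 fits that left out 1 array after pinching and in 2 of 9 after clean injury. After pinching the blocked fit also called *ry* higher and *r* lower. Of the 20 list and marker genes called after clean injury, 14 lost the call without clean injury replicate 2, 12 without untreated replicate 1, 12 without untreated replicate 3 and 11 without clean injury replicate 1. Of the 13 called after pinching, 7 lost it without untreated replicate 3, 4 without untreated replicate 1 and 5 when pinching replicate 2 was dropped. Calls also fell over all probe sets. Without clean injury replicate 2 there were 441 higher and 327 lower after clean injury, against 980 and 926 with all arrays. Without untreated replicate 3 there were 418 higher and 373 lower after pinching, against 790 and 937.

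Markers of larval tissues were described with the *Gst* genes because the RNA came from whole animals. Measured were 4 of 7 fat body, 3 of 7 muscle, 6 of 6 salivary gland and 2 of 7 epidermal markers listed. None of these passed the test in either comparison. A summed level adds the unlogged signals of a tissue's markers and is given as log2, so the brightest probe sets weigh most in it. For the fat body it was 15.21 to 15.30 after pinching, 15.23 to 15.31 after clean injury and 15.20 to 15.40 in untreated larvae. Single fat body markers changed by -0.48 to 0.40 after pinching and by -0.51 to 0.89 after clean injury. Of 7 midgut markers measured (9 listed) only *alphaTry* passed, higher after clean injury, a call kept in 5 of 9 fits that left out 1 array. The summed level of the 9 hemocyte markers was 12.55 to 12.85 after pinching, 12.35 to 12.67 after clean injury and 12.85 to 13.08 in untreated larvae. After pinching the collagen gene *Col4a1* was lower and the lamellocyte marker *atilla* higher, and after clean injury *Pxn* and *PPO1* were also lower and *He* also higher. The *Col4a1* call was kept in 4 of 9 fits that left out 1 array after pinching and in 5 of 9 after clean injury, and the *PPO1* call in 3 of 9. Of 7 markers listed for the Malpighian tubule, a tissue rich in detoxification enzymes, 3 were measured. Their summed level was 8.52 to 8.78 after pinching, 8.49 to 8.58 after clean injury and 8.64 to 8.81 in untreated larvae. Among them *ZnT35C* was higher in both comparisons and *Irk2* lower after clean injury. The *Irk2* call was kept in 3 of 9 fits that left out 1 array. The summed level of the 2 epidermal markers was 5.30 to 5.89 after pinching, 5.51 to 5.77 after clean injury and 5.86 to 6.91 in untreated larvae. Of these, *TwdlT* lay near the lower end of the scale, with means of 3.32 after pinching, 3.66 after clean injury and 4.19 in untreated larvae. In the blocked fit the epidermal markers *TwdlT* and *Cpr65Ea* were lower after pinching and *Cpr65Ea* after clean injury, *Sgs4* of the salivary gland was higher after both and *Sgs3* and *Sgs5* after clean injury, and the muscle markers *Mlc2* and *bt* were lower after clean injury. That fit also called *apolpp* of the fat body lower in each comparison and *Fbp1* higher after clean injury, *alphaTry* and *He* higher in each, and *Hml* and *PPO2* lower after clean injury. The part of these tissues in the changes of the *Gst* genes was not tested.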

How the data were processed

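RNA of whole larvae was labelled and hybridized to 9 Affymetrix *Drosophila* Genome 2.0 arrays, and the authors deposited 1 log2 signal per probe set and array. The methods name R. How these signals were background-corrected, normalized and summarized is not stated in what was used here, and nothing was done to them before the fits except that 183 control probe sets of 18952 were left out. Detection calls were not used. Symbols came from the platform annotation, checked against RefSeq genes (assembly Release 6 plus ISO1 MT, 0 symbols changed). One symbol was found for 13646 probe sets, more than 1 for 402, and no symbol for 4721.

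limma 3.58.1 in R 4.3.3 fitted a mean per group to all 9 arrays (lmFit, contrasts.fit, eBayes, two-sided). Lists use each gene's brightest probe set. The labels number the replicates without stating a pairing. The deviations of arrays with equal numbers correlated above 0.1 in all 9 pairs, against -0.463 to 0.16 in the 18 pairs of unequal number, so pairing was assumed for the blocked fit. The plain fit was run on simulated arrays with known changes, independent errors and no replicate effect. That run did not test the blocked fit or genes that move together from array to array. Tables were made with Python 3.11.15.

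The *Gst* genes, lists and tests were chosen with earlier results of these data known. Any *Gst* gene could be named. *Gst* genes called against untreated larvae, and others chosen after their values were seen, have every array given. Every called list gene is named. Alternatives were quantile normalization, median centring, a filter on the dimmest 40% of probe sets, fits of 6 arrays, the methods' t-test, the block, the mean of a gene's probe sets and leaving out each array. The number of arrays limits the precision.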

Additional observations from a re-analysis of the deposited data

How the results depend on the processing

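In the plain fit 1 *Gst* gene was higher and 5 were lower in each comparison with untreated larvae. With the replicate number as a block, limma called 2 higher and 12 lower after pinching, and 1 higher and 9 lower after clean injury. Quantile normalization, and likewise leaving out the dimmest 40% of probe sets, gave 2 genes higher after pinching, *GstZ2* being the second. Under the methods' t-test, adjusted in the same way, 0 were higher and 0 lower in both comparisons. At an unadjusted p under 0.05 it gave 2 higher and 6 lower after pinching (8.7% and 9.14% of all probe sets) and 1 higher and 7 lower after clean injury (10.5% and 12.2%), and after adjustment over all probe sets it called 25 higher and 14 lower after pinching and 85 and 36 after clean injury. The other settings gave 4 to 7 genes lower after pinching and 4 to 6 after clean injury. Leaving out 1 array gave 1 to 2 higher and 1 to 5 lower after pinching, and 1 to 2 higher and 1 to 6 lower after clean injury. After pinching, 2 genes were lower when untreated replicate 1 or pinching replicate 2 was dropped, 3 when pinching replicate 1 was, and 1 when untreated replicate 3 was. After clean injury, 2 were lower when untreated replicate 1 or 3, clean injury replicate 1 or pinching replicate 2 was dropped, and 1 when clean injury replicate 2 was. Between pinching and clean injury 0 genes were called in either direction under all of these in limma and in the methods' t-test. Quantile normalization turned the sign of 1 gene in each comparison with untreated larvae, whose change was 0.02 log2 units after pinching and 0.05 after clean injury. Leaving out pinching replicate 1 turned the sign of 6 genes after pinching, with changes of up to 0.35, and leaving out untreated replicate 3 turned 5 after clean injury, with changes of up to 0.14. The block changed no other call of a *Gst* gene than those given above. The cause of the lost calls was not tested. Dim probe sets have no detection call, so small changes of *GstD11* and *GstE4* could not be told from background.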
